A study of Mus musculus with 24 samples.

Results

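The eukaryotic translation initiation factors are the proteins that load messenger RNA and the initiator methionyl-tRNA onto the ribosome. All gene rows whose symbol starts with Eif and a digit were taken in each of 24 RNA-seq libraries of mouse CD8+ T cells, leaving out Eif2s3x and Eif2s3y, the X-linked and Y-linked genes of the eIF2 gamma subunit. This gave 57 of the 23420 genes in the files. Of the 57 symbols, 4 (Eif2c1 to Eif2c4) are older names of the Argonaute proteins Ago1 to Ago4, which act in small-RNA silencing and are not initiation factors, so counts are also given without them.

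The libraries came from 6 mice that all carried the OT-I T cell receptor transgene (OTI+) and floxed Tcf7 alleles (Tcf7 FL/FL). Mice 1 to 3 also carried the E8i-cre transgene, a recombinase driven by a Cd8a enhancer, and are labelled Tcf7 cKO, while mice 4 to 6 lacked it and are labelled WT. The age of the mice is not given in the sources used here. Tcf7 encodes TCF1, which keeps T cells in a naive or memory-like state, and since only the cKO mice carried cre, effects of cre itself and of losing Tcf7 cannot be told apart. Tcf7 RNA in the libraries labelled cKO was at 681 to 719 TPM (WT 499 to 567) at 0 h, 251 to 271 (WT 180 to 205) at 4 h, 73.6 to 127 (WT 52.6 to 87.4) at 8 h and 35.7 to 38.3 (WT 62.6 to 77.0) at 24 h. It was thus not lower in cKO before 24 h, but gene totals also count reads from exons that are not floxed and so do not check the deletion. WT and cKO below mean the libraries labelled so. CD8+ cells were purified with microbeads from spleens and lymph nodes of each mouse. They were sampled before plating (0 h) and after 4, 8 and 24 h of culture with plate-bound antibodies to CD3 and CD28 (1 ug/mL coating) and IL2 (6 ng/mL). Each library was made by the full-length Smart-seq2 protocol from 1000 sorted cells, and each of the 8 genotype-by-time groups held 3 libraries, 1 per mouse.

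Expected counts summed to 5846265 to 9700397 per library, of which Rn45s, the gene of the 45S ribosomal RNA precursor, took between 7.39 and 20.6%. By time this share was 16.2 to 18.9% before plating, 18.4 to 20.6% after 4 h, 14.2 to 17.2% after 8 h and 7.39 to 9.54% after 24 h. The genes with a count numbered 16210 to 17214 before plating and 13694 to 14081 after 24 h. The 7 summed markers of CD8 T cells were lower at each later time: they stood at 6628 to 7822 TPM (a length-scaled share of all transcripts) before plating, 2657 to 3199 after 4 h, 1638 to 2158 after 8 h and 1307 to 1525 after 24 h, with cKO above WT at each time. Cd4 stayed at or below 0.47 TPM. Of the B cell markers, Cd79b lay between 32.4 and 52.4 TPM before plating and between 0.77 and 18.3 TPM at the later times, while Ms4a1 and Cd79a reached at most 0.68 and 1.28 TPM. Summed over their lists, myeloid markers (4 genes) reached at most 2.42 TPM, natural killer markers (2 genes) 1.15, dendritic cell markers (3 genes) 6.31 and erythroid markers (2 of 3 genes in the files) 21.4. The part of Rn45s, gene detection and other cell types in the changes with time was not tested. Earlier results of these data had set apart the 4 h library of mouse 3 and the 8 h libraries of mice 2 and 5, and the fits were repeated without them. Some results that moved are given both ways, but not every call. TPM scales each gene by its length and each library to the same total, so fewer cells expressing a gene and less of its RNA per cell cannot be told apart, and a change in total RNA per cell is not seen.

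Initiation begins when eIF2, a GTPase of 3 subunits, brings the initiator tRNA to the small ribosomal subunit together with eIF1, eIF1A, eIF3 and eIF5. The cap-binding complex eIF4F, made of the cap-binding protein eIF4E, the scaffold eIF4G and the RNA helicase eIF4A, recruits the messenger RNA. It has widely known control points: 4E-binding proteins hold eIF4E away from eIF4G until mTORC1 phosphorylates them, and eIF2 kinases phosphorylate the eIF2 alpha subunit, which then blocks its exchange factor eIF2B. Resting T cells are small and translate little, and antigen receptor and CD28 signals raise protein synthesis before the cells divide.

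Promoter sequences were looked at because the helicase paralogues Eif4a1 and Eif4a2 moved in opposite directions while their coding sequences are alike. RefSeq promoters (build GRCm38.p6, 250 bases before to 50 after the annotated start) were at hand for 44 of the 57 members. The Argonaute symbols Eif2c1, Eif2c3 and Eif2c4 are among these 44. The E-box CACGTG, a palindrome bound by MYC with MAX and by related factors, was in the promoters of 10 of these 44 genes (22.7%) and of 8.09% of all 27025 genes in the table, or 7.15% of all promoters. The 10 were Eif1b, Eif3a, Eif3f, Eif3k, Eif4a1, Eif4e, Eif4g1, Eif4h, Eif5a and Eif5a2. The bases before the start given in the promoter table are shown for both helicase genes, for the scaffold gene Eif4g1 and for Eif5a2, with each E-box in capitals, 5′ to 3′ on the strand of the gene. Eif4a1 lies at chr11:69672424-69672673 (minus strand), Eif4a2 at chr16:23107218-23107467 (plus strand), Eif4g1 at chr16:20672477-20672726 (plus strand) and Eif5a2 at chr3:28781027-28781276 (plus strand).
Eif4a1: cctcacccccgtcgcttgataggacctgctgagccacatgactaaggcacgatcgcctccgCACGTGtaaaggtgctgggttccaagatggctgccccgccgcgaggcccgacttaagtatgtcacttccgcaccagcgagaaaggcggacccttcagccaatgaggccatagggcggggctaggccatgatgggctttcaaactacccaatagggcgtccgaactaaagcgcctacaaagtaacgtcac
Eif4a2: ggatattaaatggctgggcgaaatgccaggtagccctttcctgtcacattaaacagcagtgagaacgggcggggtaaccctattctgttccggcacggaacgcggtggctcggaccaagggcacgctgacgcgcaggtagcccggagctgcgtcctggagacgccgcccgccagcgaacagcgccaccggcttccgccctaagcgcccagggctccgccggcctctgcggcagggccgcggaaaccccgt
Eif4g1: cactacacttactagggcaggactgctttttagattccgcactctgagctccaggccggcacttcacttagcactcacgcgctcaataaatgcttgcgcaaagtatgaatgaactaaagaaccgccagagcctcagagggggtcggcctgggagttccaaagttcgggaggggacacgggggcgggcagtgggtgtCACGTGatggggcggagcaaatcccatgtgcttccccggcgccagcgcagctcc
Eif5a2: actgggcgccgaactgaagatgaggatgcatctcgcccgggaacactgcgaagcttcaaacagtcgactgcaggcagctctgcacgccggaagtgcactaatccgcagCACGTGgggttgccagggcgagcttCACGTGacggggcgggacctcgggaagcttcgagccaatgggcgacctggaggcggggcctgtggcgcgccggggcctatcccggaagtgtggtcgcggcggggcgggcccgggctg
The E-box of Eif4a1 began 189 bases before the start. Eif4g1 held 2, of which the one shown lies 54 bases before the start and the other lies 15 bases after it, past the bases shown. Eif5a2 held 2, at 142 and 117 bases before the start, and Eif4a2 held none in this window. The table gives 1 start for each of these genes. Annotated exons cover 24 bases of the Eif4a2 stretch, 4 of the Eif4g1 stretch and 1 of the Eif5a2 stretch. The RefSeq start used for Eif4g1 lies inside the gene, whose annotation in GENCODE begins at position 20668313. A match is a description of these letters and not a bound site.

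The same search on both strands was made for 3 other motifs. The ETS motif CCGGAAGT was in 8 of 44 member genes (18.2%, against 4.31% of all genes), the NRF1 motif in 1 (2.27% against 1.07%) and the YY1 motif in 0 (against 0.755%). The Eif5a2 stretch printed above also holds the ETS motif, 164 and 36 bases before the start, which is not marked there. A terminal oligopyrimidine start, a C at the annotated start followed by at least 4 pyrimidines, was found for 1 of 44 (2.27%, against 3.01% of all genes). This search depends on the exact first base of the annotated starts, and members without a promoter at hand were not searched. It therefore does not show how common such starts are among the members. Myc itself was in WT at 144 ± 13.9 TPM before plating, 1161 ± 39.8 after 4 h, 1003 ± 78.3 after 8 h and 441 ± 22.9 after 24 h (SD, n = 3). Whether these promoters were bound was not measured.

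Eif4a1 and Eif4a2 encode the paralogous helicases eIF4A1 and eIF4A2, and their coding sequences are 78.1% identical over 1221 aligned nucleotides. A stretch around the DEAD motif that names this helicase family shows how the reads of the pair can be told apart. The stretch holds coding bases 520 to 579 of Eif4a1 and 526 to 585 of Eif4a2, with the 8 bases that differ in capitals.
Eif4a1: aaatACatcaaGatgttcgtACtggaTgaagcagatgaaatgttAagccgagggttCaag
Eif4a2: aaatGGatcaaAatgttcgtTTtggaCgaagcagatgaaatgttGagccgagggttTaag
Such differences are spread along the coding sequence, unlike in the pair Eif3j1 and Eif3j2, whose coding sequences were identical over all 786 aligned bases.

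Most initiation factor RNAs rose during activation and did so within the first 4 h. Expected counts were tested across all 11470 genes that passed a filter on low counts with edgeR's quasi-likelihood test, and a gene is called at a Benjamini-Hochberg adjusted p under 0.05 within its comparison. Of the 57 members 55 passed the filter. In WT at 24 h against 0 h, 40 of the 55 were higher and 9 lower, where 36.9% of all genes tested were called higher and 40.1% lower (77.0% in all). The median log2 change was 1.10 over the members and −0.08 over all genes. In cKO at 24 h, 39 were higher and 8 lower (37.3% and 39.0% of all genes, 76.3% in all), with a median of 1.06 against −0.07. All 39 members called higher in cKO and all 8 called lower were also called that way in WT. Of the 10 genes with an E-box, 9 were higher at 24 h than at 0 h in WT and 0 lower, with a median log2 change of 1.38. Of the 33 tested genes without it, 24 were higher and 7 lower, with a median of 1.10. These 33 include the Argonaute symbols Eif2c1 and Eif2c3, both among the 7 lower. In cKO the counts were 9 higher and 0 lower of 10, and 24 higher and 6 lower of 33, with Eif2c1 among the 6. The shares of all genes called are those just given, and no difference between the sets was tested. The ETS motif, in 18.2% of member genes against 4.31% of all genes, was not split by calls in this way.

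The rise was under way at 4 h. At that time 38 members were higher and 4 lower than at 0 h in WT (30.0% and 29.1% of all genes, 59.0% in all), and 38 were higher and 5 lower in cKO (29.6% and 27.6%, 57.2% in all). Without TMM scaling these splits became 31 and 8 in WT and 28 and 8 in cKO, and the median of all genes in WT then lay at −0.20 in place of −0.04. At 8 h, 40 were higher and 3 lower in WT (33.4% and 34.0% of all genes, 67.4% in all) and 43 and 4 in cKO (33.1% and 32.4%, 65.6% in all). Leaving out the Eif2c symbols, the 52 tested members had 40 higher and 7 lower in WT at 24 h, and 39 and 7 in cKO. The symbols not tested were Eif2c4, at 0 to 0.24 TPM in every library, and Eif4e1b, an eIF4E relative of oocytes, at 0 to 1.35 TPM.

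Summed over all 57 members, TPM lay between 7767 and 8346 in the resting libraries, between 12134 and 13363 after 4 h, between 14931 and 16508 after 8 h and between 16967 and 17470 after 24 h. Each step was without overlap between the 6 libraries of neighbouring times. Replicates of a group lay close together: over the groups in which a member had a mean of at least 10 TPM, the median coefficient of variation was 5.25%. The heat map of all tested members shows the order of events by role.

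**Figure D1:**
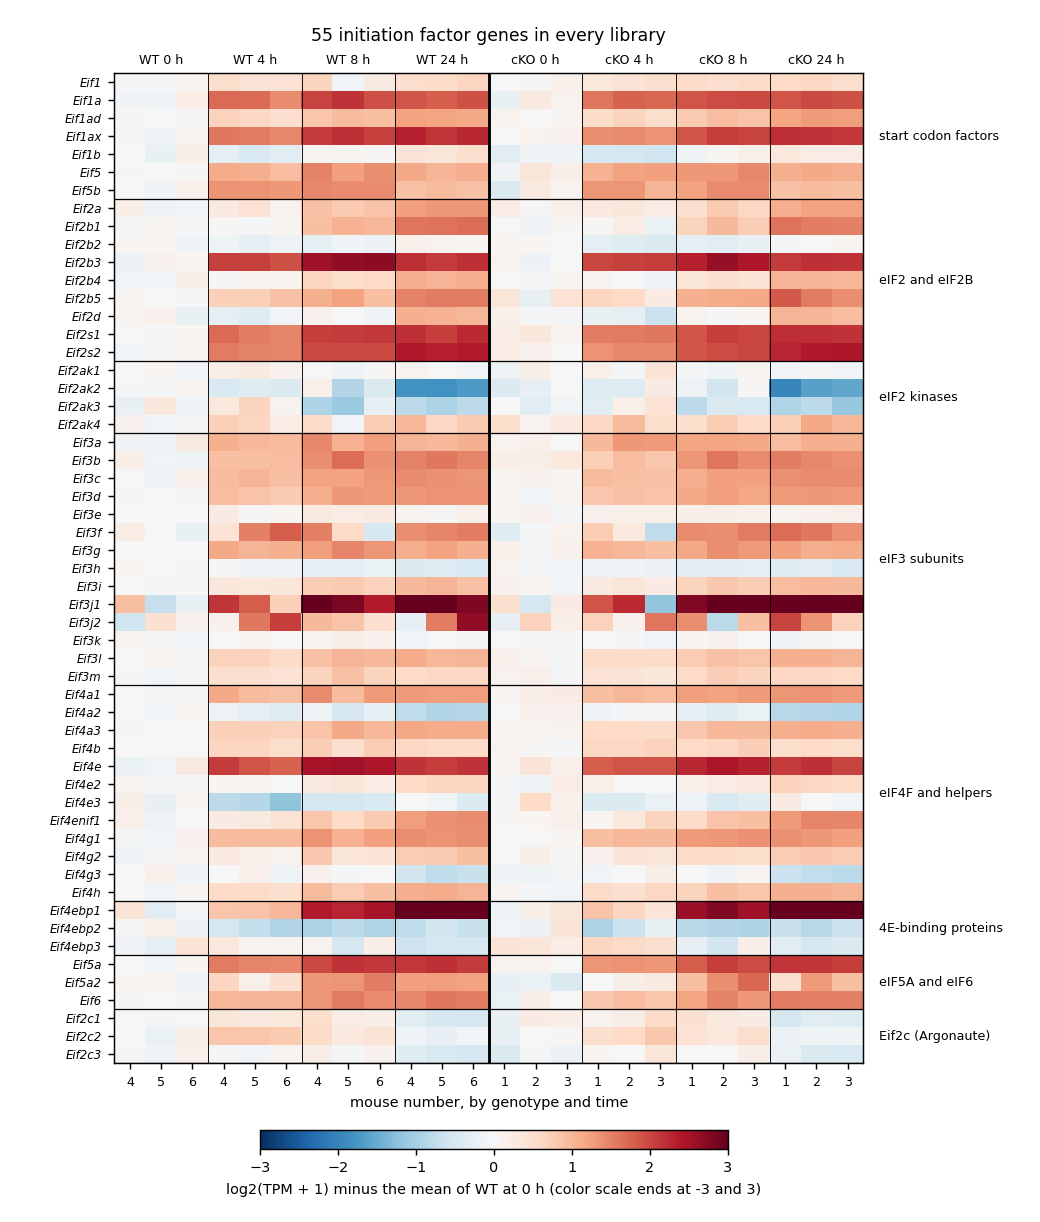
Rows are the 55 tested initiation factor symbols grouped by role, columns the 24 libraries by genotype, time and mouse, and colors the log2(TPM + 1) difference from the mean of the 3 WT libraries at 0 h, with the scale ended at −3 and 3. The columns of WT and cKO mice at the same time look alike, most rows turn red by 4 h, and Eif2ak2, Eif4a2 and Eif4g3 turn blue at 24 h.

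The start codon factors rose as a group. eIF1 and eIF1A hold the scanning ribosome open, eIF5 triggers GTP hydrolysis by eIF2, and eIF5B joins the ribosomal subunits. All 7 symbols listed in this group were higher at 24 h in both genotypes, with a median log2 change of 1.14 in WT and 1.03 in cKO. Eif1ad was placed in the list by its symbol and is not shown here to act at the start codon. Eif1ax, the X-linked gene of eIF1A, had 88.0, 79.3 and 91.7 TPM at rest (0 h) in the WT animals, mice 4, 5 and 6, and reached 428, 382 and 416 TPM after 24 h. Its values in cKO mice 1, 2 and 3 were 86.3, 93.6 and 93.7 TPM at rest, then 403, 393 and 380 TPM after 24 h. Every 24 h library lay far above every 0 h library, and the log2 change was 2.28 in WT (SE 0.0994, adjusted p = 2.05e-21) and 2.18 in cKO (SE 0.0982, adjusted p = 5.28e-21, edgeR). Its autosomal paralogue Eif1a was up by log2 1.93 in WT at 24 h.

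Within the group the time courses differed. Eif5b and Eif5 were higher at 8 h than at 24 h: in WT, Eif5b was 1.63 above its 0 h level on the log2 scale at 8 h and 0.99 at 24 h, and Eif5 was 1.53 and 1.14 above. Eif1b, a second eIF1 gene that is 81.3% identical to Eif1 over 342 coding bases, first fell. It was at 95.8, 82.3 and 111 TPM in WT at 0 h, at 77.5, 68.9 and 74.7 at 4 h and at 125, 124 and 137 at 24 h. In cKO mice 1 to 3 it was at 76.4, 88.7 and 88.9 TPM at 0 h, 66.0, 66.6 and 62.4 at 4 h and 120, 111 and 111 at 24 h. All 24 h values of each genotype were above its 0 h values, and all 4 h values were below them. The fall at 4 h was called in both genotypes (log2 −0.30, adjusted p = 0.025 in WT, and −0.31, adjusted p = 0.0245 in cKO, edgeR), but in WT not without mouse 6, without a filter or with the groups compared alone (highest adjusted p over the alternatives 0.261). In cKO it was lost without mouse 2, without mouse 3 and without a filter. It was also lost there without the 4 h library of mouse 3 and the 8 h libraries of mice 2 and 5 together (highest over the alternatives 0.147). Eif1 was at 314.5, 323.4 and 349.9 TPM in WT at 0 h, 526.2, 312.6 and 398.5 at 8 h and 463.4, 483.9 and 511.2 at 24 h. In cKO, Eif1 was at 332, 339.2 and 363.5 TPM at 0 h, 486.7, 467.7 and 493.2 at 8 h and 494.7, 509.6 and 466 at 24 h.

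The eIF2 subunits and their exchange factor eIF2B showed some of the largest changes and split by subunit. Of the 9 symbols listed with them, 8 were higher at 24 h in each genotype, and the list includes Eif2a and Eif2d, separate factors that can deliver tRNA to the ribosome without eIF2. Eif2s1 encodes eIF2 alpha, the subunit that the eIF2 kinases phosphorylate. It was at 78.6, 76.9 and 81.8 TPM in WT mice 4 to 6 at 0 h, 258, 230 and 221 at 4 h, 338, 344 and 345 at 8 h and 367, 337 and 377 at 24 h. In cKO mice 1 to 3 it was at 92.0, 100.3 and 85 TPM at 0 h, 230, 236 and 238 at 4 h, 296, 338 and 320 at 8 h and 369, 371 and 361 at 24 h. The genotypes overlapped at 4 and 24 h and touched at 338 TPM at 8 h, while at 0 h cKO was above WT, and the 24 h change was log2 2.24 in WT (SE 0.0929, adjusted p = 5.07e-22) and 2.07 in cKO (SE 0.0919, adjusted p = 3.49e-21, edgeR).

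Eif2s2, the gene of eIF2 beta, was at 82.6, 84.3 and 94.4 TPM in WT at 0 h and at 465, 444 and 453 at 24 h, and at 102, 95.4 and 86.9 TPM in cKO at 0 h and 429, 467 and 472 at 24 h. Its log2 change was 2.43 in WT (SE 0.09, adjusted p = 1.94e-23) and 2.34 in cKO (SE 0.0893, adjusted p = 4.61e-23, edgeR). No 0 h library of either subunit gene came near a later one.

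Among the 5 subunits of eIF2B the RNAs did not move together. Eif2b3, the gene of the gamma subunit, rose first and furthest: it was at 21.2, 26.6 and 25.3 TPM in WT at 0 h, 103, 104 and 93.2 at 4 h, 146, 158 and 162 at 8 h and 116, 106 and 115 at 24 h. In cKO it was at 26.3, 21.4 and 24.5 TPM at 0 h, 99.5, 103 and 105 at 4 h, 127, 153 and 135 at 8 h and 107, 114 and 113 at 24 h. The highest values were those at 8 h in both genotypes, with no overlap with the other times. Eif2b1, of the alpha subunit, had barely moved at 4 h (46.2, 50.4 and 46.4 TPM at 0 h and 48.9, 45.8 and 49.6 at 4 h in WT, log2 0.10, adjusted p = 0.46, edgeR) and reached 146, 149 and 154 TPM at 24 h (log2 1.70). Eif2b4, of the delta subunit, was likewise not called at 4 h (log2 0.13) and was higher at 24 h (1.10), and Eif2b5, of the catalytic epsilon subunit, was higher at both times (0.90 and 1.64). Eif2b2, of the beta subunit, was the exception: it was at 87.2, 86.6 and 76.0 TPM at 0 h and 92.2, 89.6 and 86.5 at 24 h in WT, a log2 change of 0.15 that was not called (adjusted p = 0.17, edgeR).

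Of the 6 members that were higher in WT at 24 h without being called higher at 4 h, 4 were Eif2b1, Eif2b4, Eif2d and Eif1b, and the others were Eif3j2 and Eif4e2, the gene of the cap-binding protein 4EHP. Eif2d stood at 41.7, 43.7 and 34.0 TPM in WT at 0 h, at 32.5, 30.7 and 37.4 at 4 h, at 43.1, 40.2 and 36.4 at 8 h and at 83.4, 82.0 and 79.7 at 24 h. The cKO values were 44.1, 38.1 and 38.1 TPM at 0 h, 33.9, 33.2 and 24.8 at 4 h, 42.3, 38.5 and 41.3 at 8 h and 81.4, 80.9 and 76.6 at 24 h. It was lower at 4 h than at 0 h in cKO (log2 −0.30, adjusted p = 0.0335, highest over the alternatives 0.27, edgeR) and was called higher from 4 to 8 h in WT (log2 0.30, adjusted p = 0.0445, highest 0.497) and cKO (log2 0.44, adjusted p = 0.0038, highest 0.0839). Against 0 h it was called higher at 24 h and not at 8 h in both genotypes.

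The 4 eIF2 kinases, each tied to a different stress, went in different directions. Eif2ak2 encodes PKR, which senses double-stranded RNA and is induced by interferon. In WT it was at 22.1, 21.9 and 23.8 TPM at 0 h, 16.1, 17.3 and 16.8 at 4 h, 25.3, 11.9 and 16.5 at 8 h and 5.82, 5.73 and 6.10 at 24 h. In cKO it was at 16.9, 18.8 and 22.8 TPM at 0 h, 17.1, 17.0 and 26.9 at 4 h, 20.2, 15.0 and 23.3 at 8 h and 5.03, 6.67 and 6.97 at 24 h. All 6 libraries at 24 h were below all 18 earlier ones. The log2 change at 24 h was −1.89 in WT (SE 0.178, adjusted p = 1.64e-10) and −1.55 in cKO (SE 0.177, adjusted p = 7.1e-09, edgeR).

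Eif2ak3, the gene of the endoplasmic reticulum kinase PERK, was low throughout, at 3.38, 5.51 and 3.79 TPM in WT at 0 h and 1.98, 1.67 and 1.97 at 24 h (log2 −1.13, adjusted p = 0.000278, edgeR). Eif2ak4, the gene of the amino acid sensor GCN2, was at 3.11, 2.56 and 2.67 TPM in WT at 0 h and 6.56, 4.78 and 5.45 at 24 h (log2 1.08, adjusted p = 4.11e-05, edgeR). Eif2ak1, the gene of the haem-regulated kinase, was at 45.4, 49.0 and 43.4 TPM at 0 h and 49.6, 45.8 and 43.1 at 24 h, with overlapping groups and a log2 change of 0.05 that was not called. In cKO the 24 h changes had the same calls, −1.03 for Eif2ak3, 0.87 for Eif2ak4 and 0.02 for Eif2ak1.

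**Figure D2:**
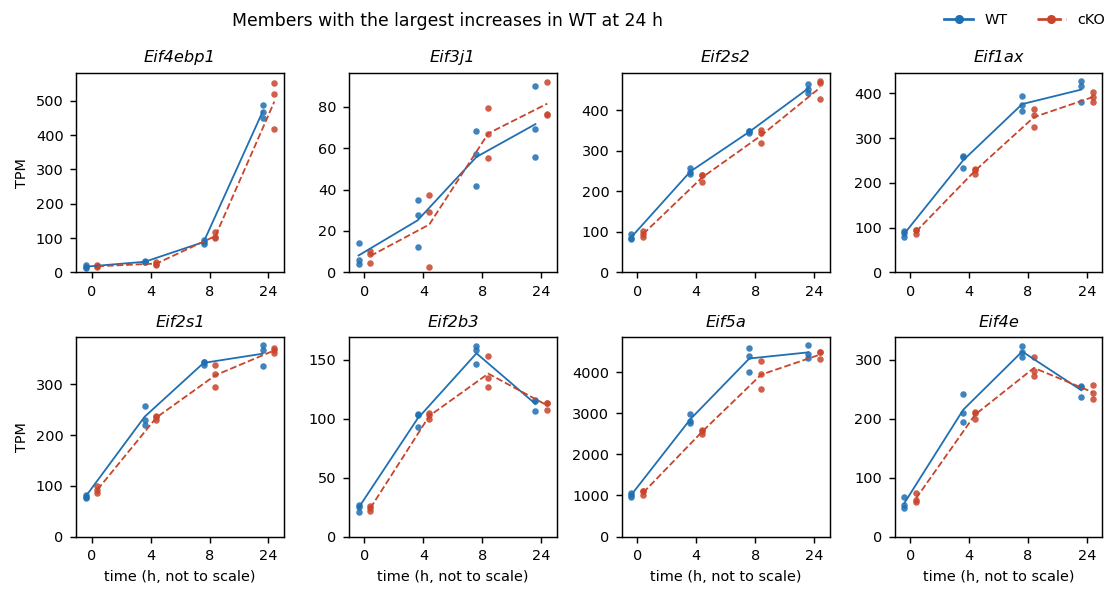
TPM (linear axes from 0) of the 8 members with the largest called increases in WT at 24 h, against time (0, 4, 8 and 24 h, not to scale), with 1 point per mouse and lines through the means of WT (blue, solid) and cKO (red, dashed). Eif4ebp1 rose mainly after 8 h, Eif2b3 and Eif4e were highest at 8 h, and Eif3j1 had widely spread points at 4 h.

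eIF3 is the largest initiation factor, a ring of subunits that bridges the small ribosomal subunit and eIF4G. Its subunit RNAs started from unequal levels and came closer together. At 24 h in WT 11 of 14 were higher and 1 lower, with a median log2 change of 1.13, and in cKO 10 were higher and 1 lower, with a median of 1.11. Without the pair Eif3j1 and Eif3j2, the highest subunit stood 16.0 to 22.6 times above the lowest in the 6 libraries at 0 h. After 4 h this ratio was 10.1 to 11.8, after 8 h 6.26 to 7.48 and after 24 h 6.86 to 7.71, so the 0 h and 24 h libraries did not overlap. The SD of log2 TPM over the 12 subunits was 1.27 to 1.39 at rest and 0.953 to 0.98 after 24 h.

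The 3 subunits highest at rest, Eif3h, Eif3k and Eif3e, were not higher at 24 h. Eif3h was the highest at 0 h, at 783, 756 and 728 TPM in WT and 810, 736 and 712 in cKO, and was at 557, 574 and 549 TPM in WT and 589, 597 and 550 in cKO at 24 h. All 24 h libraries lay below all 0 h libraries (log2 −0.39, SE 0.0823, adjusted p = 6.2e-05 in WT, and −0.30, SE 0.0821, adjusted p = 0.00116 in cKO, edgeR). Eif3k and Eif3e, at 595 to 676 and 545 to 559 TPM in WT at 0 h, had log2 changes of −0.01 and 0.14 at 24 h that were not called. Among lower ones, Eif3b, a scaffold subunit of the core, was at 41.0, 33.6 and 32.2 TPM in WT at 0 h and 100.2, 108 and 99.0 at 24 h (log2 1.58). Eif3c and Eif3d, subunits of the core and of the cap-contacting arm, were up by 1.42 and 1.38. Eif3a, the large scaffold subunit and the next lowest at rest, rose less, by 1.08. Across the 12 subunits the WT level at 0 h and the change to 24 h had a Spearman rho of −0.89 (cKO −0.83), a description over 12 genes in which the 0 h level enters both sides. Over the 55 tested members the same rho was 0.004 in WT and 0.042 in cKO.

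**Figure D3:**
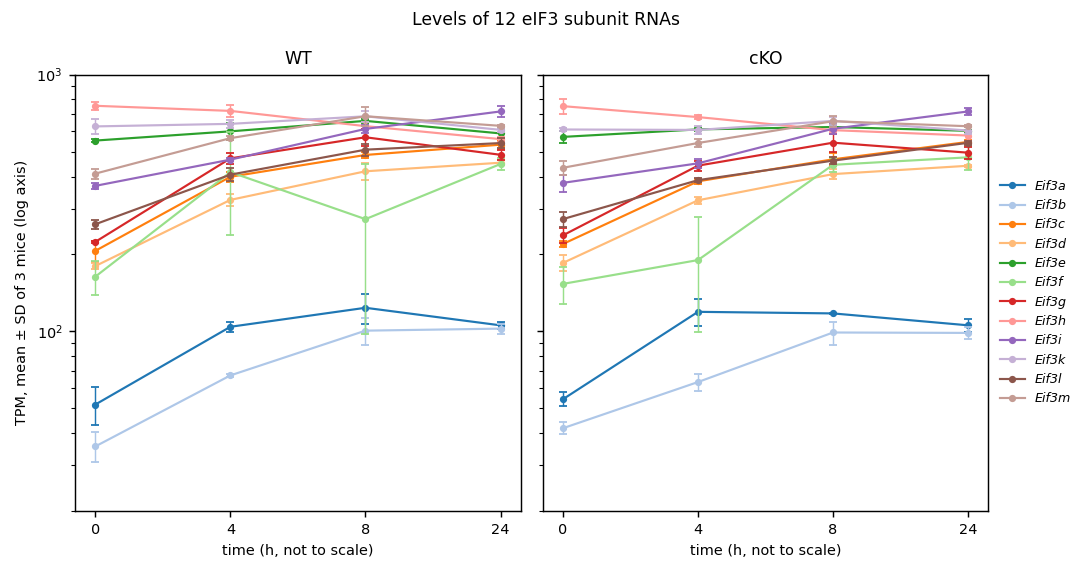
Mean TPM ± SD of 3 mice (log axis) for 12 eIF3 subunits against time (not to scale) in WT (left) and cKO (right). The spread between subunits narrows from 0 to 8 h in both panels, Eif3a and Eif3b stay lowest, and Eif3f has wide error bars at 4 h in both genotypes and at 8 h in WT.

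Eif3f, the gene of a subunit with a deubiquitinase-like fold, varied between mice more than any other member apart from the Eif3j pair in groups with a mean of at least 10 TPM, with coefficients of variation up to 64.1%. In WT mice 4, 5 and 6 it was at 189, 162 and 139 TPM at 0 h, 219, 461 and 569 at 4 h, 462, 242 and 116 at 8 h and 424, 447 and 474 at 24 h. In cKO mice 1, 2 and 3 it was at 125, 158 and 176 TPM at 0 h, 274, 199 and 94.6 at 4 h, 433, 426 and 475 at 8 h and 522, 483 and 423 at 24 h. The 0 h and 24 h libraries did not overlap, while at 4 and 8 h single mice stood at resting or at 24 h levels. In WT mouse 6 was highest at 4 h and lowest at 8 h. The 24 h change was called in both genotypes (log2 1.5, SE 0.407, adjusted p = 0.00298 in WT, and 1.72, SE 0.408, adjusted p = 0.00107 in cKO, edgeR). The WT rise at 4 h (1.43, adjusted p = 0.00607) was lost without mouse 5 or mouse 6 (highest adjusted p 0.066).

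Eif3j1 and Eif3j2 encode the same eIF3 subunit, which sits loosely on the complex near the decoding site. With identical coding bases, the share of reads given to each gene is uncertain. The expected counts of Eif3j2 fell in steps: in all 24 libraries they lay within 10% of a step from a whole multiple, 1 to 16, of 54.4 counts. Eif3j1 swung the other way, for instance to 2.59 TPM in cKO mouse 3 at 4 h, where Eif3j2 was at 31.1 TPM, against 37.6 and 10.5 TPM in mouse 2. The sum of the pair was steadier. It was 18.3 ± 1.83 TPM at 0 h, 53.5 ± 6.82 at 4 h, 73.1 ± 16.2 at 8 h and 106 ± 13.3 at 24 h in WT, and 19.7 ± 1.27, 42.4 ± 7.65, 84.1 ± 1.79 and 110 ± 14.8 TPM in cKO (SD, n = 3). Taken alone, Eif3j1 was at 14.3, 4.10 and 6.08 TPM in WT at 0 h and 89.9, 69.2 and 55.8 at 24 h (log2 3.23, SE 0.619, adjusted p = 0.00015, edgeR), but the split between the genes enters this value.

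The cap-binding complex and its helpers showed exchanges between paralogues. Of the 12 tested symbols listed in this group, 9 were higher and 2 lower at 24 h in each genotype. Eif4a3 was placed in the list by its symbol and is not shown here to act in this complex. Eif4e, the gene of the cap-binding protein, was at 48.9, 52.8 and 67.7 TPM in WT at 0 h, 241, 210 and 194 at 4 h, 313, 324 and 304 at 8 h and 253, 237 and 255 at 24 h. The cKO mice had 58.2, 73.5 and 62.5 TPM at 0 h, 199, 210 and 211 at 4 h, 272, 305 and 281 at 8 h and 244, 258 and 233 at 24 h. Eif4e was highest at 8 h in every mouse, and its log2 change at 24 h was 2.18 in WT (SE 0.113, adjusted p = 2.34e-18) and 2.00 in cKO (SE 0.112, adjusted p = 1.92e-17, edgeR). Eif4b and Eif4h, cofactors of the helicase, rose by 0.65 and 1.12 in WT, and Eif4enif1, which carries eIF4E into the nucleus and into processing bodies, rose by 1.44. Eif4e3, an atypical cap-binding protein gene, was lower at 4 h. Its WT values were 9.54, 7.01 and 8.76 TPM at rest, 4.41, 4.14 and 3.05 after 4 h and 8.39, 7.83 and 6.11 after 24 h (4 h against 0 h log2 −1.01, SE 0.222, adjusted p = 0.000177, edgeR). In cKO the 4 h value was −0.58 (adjusted p = 0.014), a call lost without mouse 2 (highest adjusted p 0.284).

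Eif4a1 and Eif4a2 changed places. In WT, Eif4a1 was at 221, 214 and 227 TPM at 0 h, 487, 426 and 410 at 4 h, 588, 426 and 536 at 8 h and 538, 524 and 526 at 24 h. Eif4a2 was at 373, 346 and 390 TPM at 0 h, 332, 301 and 281 at 4 h, 337, 260 and 301 at 8 h and 218, 197 and 204 at 24 h. In all 6 resting libraries Eif4a2 was the higher of the pair, and in all 18 later libraries it was the lower. In cKO, Eif4a1 was at 235, 252 and 260 TPM at 0 h and 554, 562 and 536 at 24 h, and Eif4a2 at 373, 406 and 404 TPM at 0 h and 207, 202 and 197 at 24 h. The ratio of Eif4a1 to Eif4a2 was 0.582 to 0.644 at rest over both genotypes. After 4 h it was 1.41 to 1.47 in WT and 1.11 to 1.24 in cKO, after 8 h 1.64 to 1.82 and after 24 h 2.47 to 2.78 over both. The log2 changes at 24 h were 1.31 for Eif4a1 (SE 0.0804, adjusted p = 4.65e-17) and −0.79 for Eif4a2 (SE 0.0781, adjusted p = 1.92e-11) in WT, and 1.23 and −0.89 in cKO (adjusted p = 2.66e-16 and 1.04e-12, edgeR).

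The scaffold genes also parted by 24 h. Eif4g1 was at 29.8, 28.7 and 33.5 TPM in WT at 0 h and 81.4, 79.5 and 82.3 at 24 h, and in cKO at 30.6, 30.3 and 31.7 TPM and then 80.6, 77.4 and 73.4. Eif4g3, whose protein is a second eIF4G, was at 25.1, 28.3 and 22.9 TPM in WT at 0 h, 27.8, 24.8 and 25.4 at 8 h and 17.0, 14.5 and 15.6 at 24 h, and in cKO at 23.1, 22.9 and 24.8 TPM at 0 h and 15.9, 14.8 and 14.0 at 24 h. Against 0 h, Eif4g3 had no call at 4 or 8 h in WT. In cKO it was called higher at both times, but these calls were lost with library sizes alone and with limma, among other alternatives. The pair was near equal at rest, with a ratio of 1.02 to 1.46, and stood at 4.80 to 5.47 at 24 h. In WT the log2 changes were 1.45 for Eif4g1 (SE 0.0794, adjusted p = 1.53e-18) and −0.64 for Eif4g3 (SE 0.0958, adjusted p = 2.38e-07), and in cKO 1.40 and −0.58 (adjusted p = 3.67e-18 and 1.27e-06, edgeR). Eif4g2, the gene of DAP5, which lacks the site for eIF4E, rose by 0.88 in WT.

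**Figure D4:**
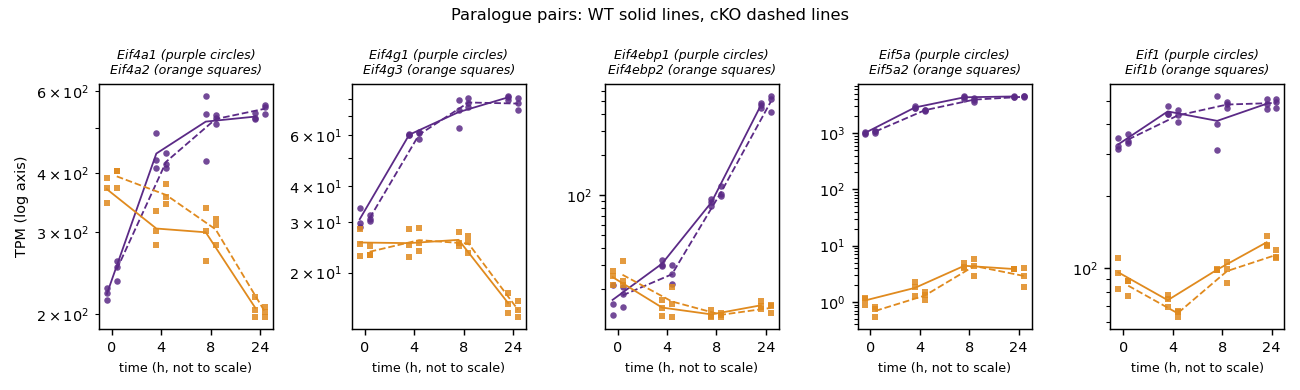
TPM (log axes, 1 point per mouse, lines through group means, solid for WT and dashed for cKO) of 5 paralogue pairs against time, not to scale. Eif4a1 and Eif4a2 cross between 0 and 4 h and Eif4ebp1 passes Eif4ebp2 by 4 h, Eif4g1 and Eif4g3 part from near-equal levels, and the pairs Eif5a with Eif5a2 and Eif1 with Eif1b keep their order.

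Among the 4E-binding proteins, the repressors of eIF4E, 1 gene rose and 2 fell in each genotype at 24 h. Eif4ebp1 was at 21.4, 12.7 and 15.5 TPM in WT at 0 h, 29.3, 30.0 and 33.0 at 4 h, 88.6, 82.7 and 93.7 at 8 h and 489, 466 and 449 at 24 h. In cKO it was at 14.6, 18.3 and 20.6 TPM at 0 h, 29.8, 25.6 and 21.5 at 4 h, 102, 117 and 98.9 at 8 h and 419, 521 and 553 at 24 h. The libraries of the 4 times did not overlap in either genotype, and most of the rise came after 8 h. The small rise at 4 h in cKO (0.61, adjusted p = 0.00209) was lost without mouse 1 (highest adjusted p 0.105). The log2 change at 24 h was 4.88 in WT (SE 0.154, adjusted p = 1.02e-24), a fitted 29.5-fold, and 4.89 in cKO (SE 0.15, adjusted p = 5.64e-25, edgeR), the largest of all members in each genotype.

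Its paralogue Eif4ebp2 was at 25, 26.9 and 21.3 TPM in WT at 0 h and 14.0, 16.2 and 14.9 at 24 h, and at 22.8, 21.3 and 32.1 TPM in cKO at 0 h and 14.8, 13.2 and 15.1 at 24 h. The 24 h libraries all lay below the 0 h libraries (log2 −0.65, SE 0.171, adjusted p = 0.000809 in WT, and −0.73, SE 0.17, adjusted p = 0.000222 in cKO, edgeR). The ratio of Eif4ebp1 to Eif4ebp2 was 0.47 to 0.859 at rest and 28.3 to 39.3 after 24 h. Eif4ebp3 was at 7.13 to 12.1 TPM at 0 h and 5.44 to 7 at 24 h over both genotypes, and its fall in WT (−0.62, adjusted p = 0.0277) was lost without mouse 3, 4 or 6 and with no filter (highest adjusted p 0.276).

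Eif5a was the most abundant member at every time. Its protein, named as an initiation factor, carries the modified amino acid hypusine and helps the ribosome through elongation and release. It was at 1021, 966 and 1063 TPM in WT at 0 h, 2979, 2821 and 2763 at 4 h, 4009, 4581 and 4401 at 8 h and 4438, 4658 and 4343 at 24 h. In cKO it was at 1099, 1097 and 1003 TPM at 0 h, 2559, 2597 and 2499 at 4 h, 3581, 4274 and 3955 at 8 h and 4485, 4484 and 4309 at 24 h. The 0 h and 4 h libraries overlapped with no later time, and the 24 h log2 change was 2.19 in WT (SE 0.0925, adjusted p = 2.01e-21) and 2.15 in cKO (SE 0.0923, adjusted p = 3.31e-21, edgeR). Eif5a2 rose by a like amount from a trace level in WT, from 1.15, 1.18 and 0.87 TPM at 0 h to 3.86, 3.89 and 3.79 at 24 h (log2 1.89). In cKO it was at 0.75, 0.8 and 0.53 TPM at 0 h, 2.88, 4.39 and 5.77 at 8 h and 1.87, 3.96 and 2.87 at 24 h. The fall of Eif5a2 from 8 to 24 h in cKO was called (log2 −0.615), but the 8 h and 24 h values overlapped, and in WT this step was not called. Eif6, whose protein keeps the large ribosomal subunit from joining too early, was at 164, 159 and 154 TPM in WT at 0 h and 434, 479 and 461 at 24 h (log2 1.57). Dhps and Dohh, the enzymes that make hypusine, were higher at 24 h by 1.41 and 1.36.

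Most members called from 4 to 8 h were higher, while from 8 to 24 h the split of calls by direction differed between settings. From 4 to 8 h, 34 members were higher and 2 lower in WT (21.9% and 19.7% of all genes, 41.6% in all) and 33 and 2 in cKO (20.8% and 19.6%, 40.4% in all). Without the 4 h library of mouse 3 and the 8 h libraries of mice 2 and 5 the cKO counts were 21 and 0. From 8 to 24 h, 9 were higher and 19 lower in WT (24.7% and 34.1% of all genes, 58.7% in all) and 12 and 11 in cKO (25.2% and 32.1%, 57.3% in all). With DESeq2 the WT split was 16 higher and 15 lower, with library sizes alone 25 and 10, without Rn45s 17 and 12, and without mouse 3, a cKO mouse that enters through the shared fit, 17 and 11. In cKO the same settings gave 17 and 9, 24 and 8, 22 and 9, and 13 and 7. The members higher at this step in both genotypes included Eif2a, Eif2b1, Eif2b4, Eif2b5, Eif2d, Eif2s2, Eif4ebp1 and Eif4enif1, and those lower in both included Eif2ak2, Eif4a2, Eif4g3, Eif2b3, Eif4e, Eif5 and Eif5b.

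The Argonaute genes under older symbols went their own way. Eif2c2 (Ago2), the slicing Argonaute, was at 19.1, 16.4 and 21.4 TPM in WT at 0 h, 34.4, 34.3 and 33.3 at 4 h and 17.3, 15.8 and 17.8 at 24 h. It was higher at 4 h (log2 0.95, adjusted p = 5.73e-11, edgeR) and had no call at 24 h (−0.11, adjusted p = 0.29). Eif2c1 was higher at 4 h (0.47) and lower at 24 h (−0.47), a call lost with no filter on low counts (highest adjusted p 0.0796).

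Genes that work with the initiation factors were counted from fixed lists. Of 35 tested partners and regulators, 16 were higher and 10 lower in WT at 24 h and 16 and 9 in cKO, with medians of 0.34 and 0.15, where 36.9% and 40.1% of all genes were higher and lower in WT and 37.3% and 39.0% in cKO. Of 21 elongation, release and recycling factors, 13 were higher and 5 lower in WT and 14 and 6 in cKO, with medians of 0.61 and 0.65. Pdcd4, which binds eIF4A and blocks its helicase, fell from 121 ± 12.8 to 12.0 ± 1.28 TPM in WT (log2 −3.29) and from 155 ± 9.92 to 11.5 ± 1.21 in cKO (SD, n = 3). Ppp1r15a, which guides a phosphatase to eIF2 alpha, fell from 140 ± 8.45 to 18.8 ± 0.424 TPM (−2.85), and Paip2, an inhibitor of poly(A)-binding protein, fell from 349 ± 11.4 to 145 ± 5.98 (−1.22). The eIF4E kinase genes Mknk1 and Mknk2 were lower by log2 values of −0.70 and −0.55. Rises included Etf1, the release factor eRF1, from 24.3 ± 3.05 to 186 ± 9.79 TPM (2.99), and Pabpc4, an inducible poly(A)-binding protein, from 20.2 ± 0.346 to 83.9 ± 1.91 (2.08). The most abundant elongation factor RNAs, Eef1a1 and Eef2, were lower, by −0.52 and −0.32.

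Between genotypes no member was called at any time. In cKO against WT, edgeR called 0 of 55 members at 0, 4, 8 and 24 h, where 0.445%, 0.82%, 0.183% and 0.105% of all genes were called. At an unadjusted p under 0.05 there were 1, 7, 7 and 0 members (1.82%, 12.7%, 12.7% and 0%, against 7.37%, 11.8%, 9.93% and 3.68% of all genes). DESeq2 called 0 at each time with 2, 6, 5 and 0 under that p, and limma on log2(TPM + 1) called 0 with 3, 8, 6 and 0. The interactions, which ask whether the change from 0 h differed between genotypes, gave 0 members at 4, 8 and 24 h (0.00872%, 0.00872% and 0.0174% of all genes), with 2, 3 and 0 under an unadjusted p of 0.05 in edgeR (7.13%, 7.95% and 4.3% of all genes), 2, 3 and 0 in DESeq2 and 8, 6 and 1 in limma, neither of which called any. With 3 mice a group these counts do not show that the genotypes are alike.

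The sizes of the differences were small. The median log2 difference over the members was 0.02 at 0 h, −0.10 at 4 h, −0.10 at 8 h and −0.004 at 24 h, and over all genes −0.004, −0.002, −0.03 and 0.006. At 4 h 43 of 55 members (78.2%) and at 8 h 46 (83.6%) had a lower fitted value in cKO, against 50.4% and 54.8% of all genes. Over the alternatives these counts ran from 34 to 45 and from 36 to 47, and the member medians from −0.14 to −0.03 and from −0.17 to −0.03. Without WT mouse 4 the count and median were 34 and −0.03 at 4 h but 45 and −0.17 at 8 h. Without the 3 libraries set apart they were 40 and −0.06 at 4 h and 44 and −0.08 at 8 h. In the TMM-scaled fit all 9 symbols listed with eIF2 and eIF2B were on the lower side at both times, between −0.31 and −0.02 at 4 h and between −0.26 and −0.02 at 8 h, none called. By mean TPM, however, Eif2a, Eif2b1 and Eif2b3 at 4 h and Eif2b5 and Eif2d at 8 h were slightly above WT. At 4 h Eif5a, the most abundant member, was at 2559, 2597 and 2499 TPM in the cKO mice and 2979, 2821 and 2763 TPM in the WT mice (log2 −0.21, SE 0.0885, adjusted p = 0.328, edgeR). The groups of several other members were also separate in TPM at 4 h. Of the tested members, cKO was lower for Eif1ax, Eif1b, Eif2b2, Eif2b5, Eif2s2, Eif4a3 and Eif6 and higher for Eif4a2, Eif4e3 and Eif4ebp3. None of these was called, and the share of all genes with such separation was not counted. Whether it is more common among members is therefore not known.

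The members farthest from 0 were those with spread between mice or low levels. Eif3f was at −1.16 at 4 h (adjusted p = 0.242), where the WT mice spanned 219 to 569 TPM and the cKO mice 94.6 to 274 TPM, and at 0.69 at 8 h. Eif4e3 had, at 4 h, 6.05, 6.11 and 7.21 TPM in the cKO mice against 4.41, 4.14 and 3.05 TPM in the WT mice (0.68, SE 0.228, adjusted p = 0.169, edgeR).

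**Figure D5:**
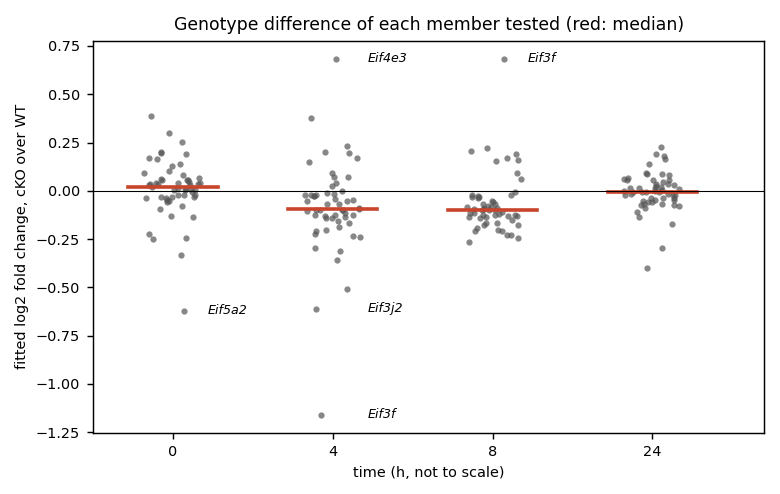
Fitted log2 fold change of cKO over WT for each of the 55 tested members (grey points, spread sideways only for visibility) at each time (not to scale), with the median in red and members beyond 0.6 named. The medians lie at 0.02, −0.10, −0.10 and −0.004, and no point passed the test.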

How the data were processed

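RNA was measured in 24 Smart-seq2 libraries, and groups come from the sample titles (3 mice a group, separate animals per the labels). Per the submitters' processing notes, STAR, RSEM, DESeq2 and the build mm10 were used; their versions are unknown here. The deposited tables hold, per the file headers, RSEM's expected counts and TPM for each gene, without molecular identifiers. Expected counts were rounded to whole numbers, filtered (filterByExpr), scaled by TMM and fitted in edgeR 4.0.16 (R 4.3.3) with a mean for each of 8 groups, giving 17 two-sided comparisons. SE was computed from the fold change and the F statistic, as |log2 fold change|/sqrt(F). DESeq2 1.42.0, limma 3.58.1 on log2(TPM + 1) and log2(TPM + 0.1), library size alone, removal of Rn45s, no filter, a filter of 5 CPM, only the groups compared, leaving out each mouse or 3 libraries, and the mouse as a block were alternatives. The test was also run on simulated counts in which few genes changed, balanced in direction. That setting differs from these data and does not check the scaling between times.

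The members and lists were chosen with earlier results of these data known. Values per mouse are given for the 8 called members that rose furthest in WT at 24 h and for up to 8 that fell (the higher group averaging 10 TPM or more, groups without overlap; 5 falls qualified) and for 5 paralogue pairs. Other members named were chosen after their values were seen. Promoters and their positions are from RefSeq GRCm38.p6, and gene positions and coding sequences are from GENCODE on GRCm38. The labels number the mice, so the libraries of a mouse at different times are paired: deviations from group means correlated between −0.0846 and 0.163 (median 0.0181) for the same mouse and between −0.137 and 0.0775 (median −0.00726) for other mice. A marker of the B cell list is not reported here.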

Additional observations from a re-analysis of the deposited data

How the results depend on the processing

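The total of members called in either direction stayed within 1.5 times its main value under the 16 alternatives (15 for cKO against WT, which takes no mouse block), with 1 exception: from 4 to 8 h in cKO 21 members were called without the 4 h library of mouse 3 and the 8 h libraries of mice 2 and 5, against 35 (fewer samples entered). Counts in 1 direction moved by more in several comparisons over time. Of the calls at 24 h against 0 h, 39 of 40 higher and 6 of 9 lower in WT, and 39 of 39 and 7 of 8 in cKO, were kept in every alternative. At 4 h 29 of 38 higher and 2 of 4 lower were kept in WT, and 26 of 38 and 1 of 5 in cKO. Leaving out 1 mouse gave 46 to 50 called members in WT and 46 to 49 in cKO at 24 h, and 35 to 42 and 34 to 44 at 4 h. No genotype comparison or interaction called a member under any alternative. From 4 to 8 h, 23 of 34 higher and 2 of 2 lower were kept in WT, and 19 of 33 and 0 of 2 in cKO. From 8 to 24 h, 6 of 9 higher and 10 of 19 lower were kept in WT, and 8 of 12 and 6 of 11 in cKO. The 8 risers, 5 falls and 5 paralogue pairs chosen by rule had each call against 0 h counted once under each alternative. Genotype comparisons, interactions, the steps from 4 to 8 h and 8 to 24 h, comparisons without a call and other members were left out. Of these cases, 1484 kept their direction and side of the threshold and 68 lost the call. A comparison that lost its call under several alternatives enters the 68 once for each.

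With the mouse as a block, the paired fit called 49 members in WT and 47 in cKO at 24 h, 43 and 42 at 4 h, 43 and 47 at 8 h and 0 in each interaction, and moved no count by over 1.5 times. Depth limits Eif2c4 and Eif4e1b, which were not tested, and low genes such as Eif4e3, Eif2ak3 and Eif5a2.

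From 8 to 24 h the share of higher against lower calls also moved without a filter (17 and 10 in WT, 21 and 8 in cKO), with a filter of 5 CPM (17 and 16 in WT), with the groups compared alone (16 and 11, 24 and 10), with limma at either pseudocount (16 and 15, 21 and 10), without mouse 5 (10 and 13 in WT), without mouse 2 (16 and 9 in cKO) and without the 3 libraries named above (13 and 15, 20 and 9). The cause was not tested.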
